A study of Mus musculus with 2 samples.

Results

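The BCL2 family of apoptosis regulators was described from 29 probe sets of 9 genes on 1 array of regulatory T cells (Tregs) from DNR mice and 1 array from wild-type (WT) mice. The family was taken as 10 genes in all, and a probe set was used if the platform annotation gave it to exactly 1 gene and that gene was a member. Bcl2, Bcl2l1, Mcl1, Bcl2l11, Bbc3, Pmaip1, Bid, Bad and Bak1 had such probe sets. Bax is not analysed here, because no probe set was assigned to it alone. The 9 genes are among 18201 that had at least 1 probe set of their own, on a platform of 45037 probe sets without controls. DNR mice carry a dominant negative form of TGF-beta receptor II, which interferes with the response to the cytokine TGF-beta, and WT mice do not. Both groups had the C57BL/6 background and an age of 10 weeks, and in both, CD4+Foxp3+ cells of the spleen were purified by flow cytometry; Foxp3 is the transcription factor that defines Tregs. The labels do not say which promoter drives the transgene, how many mice each RNA came from or how Foxp3 was seen in live cells. No probe set used here checks the genotype.

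The BCL2 family decides whether a cell opens its outer mitochondrial membrane and dies by the intrinsic route of apoptosis. The guardians BCL2, BCL-XL (Bcl2l1) and MCL1 hold the pore-forming effectors BAX and BAK in check. BH3-only proteins such as BIM (Bcl2l11), PUMA (Bbc3), NOXA (Pmaip1), BID and BAD are the sensors of stress and of missing survival signals, and they bind the guardians, the effectors or both. In Tregs, interleukin-2 supports survival, MCL1 is needed to keep the cells alive, and BIM limits their number.

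With 1 array per genotype no test of the genotype can be made, so a difference is described by its size, as the MAS5 signal of the DNR array over that of the WT array, and 2-fold is the threshold. MAS5 gives 1 signal per probe set on a linear scale. Signals under 110.9, the higher of the array medians, were set to that floor before a ratio was formed. A gene is represented by its brightest probe set and is called measured if this passed the floor on either array. An error can be estimated only from how far probe sets of 1 gene disagree. This robust SD was 0.36 on the log2 scale for a single probe set, taken over the 3968 genes for which 2 or more probe sets passed the floor on each array. Mice, sorts and hybridisations add variation that it does not contain. Among the 3968 genes, 163 differed by at least 2-fold by the brightest of these probe sets. The second brightest went the same way in 115 of the 163, and by at least 2-fold in 27. The sorted cells had signals for Foxp3 (4550 in DNR and 3754 in WT Tregs), for the Treg receptor Ctla4 (52119 and 41217) and for the T cell receptor chain Cd3d (31996 and 30370). None of 7 measured Treg markers differed by 2-fold. In bulk RNA such as this, fewer cells of a type and less RNA per cell cannot be told apart.

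Of the 9 measured members, Bak1 was at least 2-fold higher in the DNR sample, Bcl2l11 and Bbc3 were at least 2-fold lower, and 6 differed by less. Of all 11931 measured genes 6.93% differed by at least 2-fold, 4.0% as higher and 2.93% as lower. That share depended on the signal. It was 10.9% among genes with a mean signal under 500, where Bbc3, Bak1 and Bad lie. Between 500 and 2000, where Bcl2l11, Bcl2l1 and Bid lie, it was 4.27%. At 2000 or more, where Bcl2, Mcl1 and Pmaip1 lie, the share was 2.01%. By any amount 5 members were higher and 4 lower, where 51.4% of all measured genes were higher and 48.6% lower. The median log2 ratio of the members was 0.34, against 0.01 over all measured genes, and it was -0.01 when each gene was given the median over its probe sets. The members therefore had no common direction. Their median size of difference, disregarding sign, was 0.59 on the log2 scale, against 0.30 over all measured genes. That 0.59 is the value of Bid by its brightest probe set, and its second probe set above the floor was at -0.25. All measured genes also include those above the floor on 1 array only, whose ratios are bounds, while every measured member passed it on both.

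**Figure D1:**
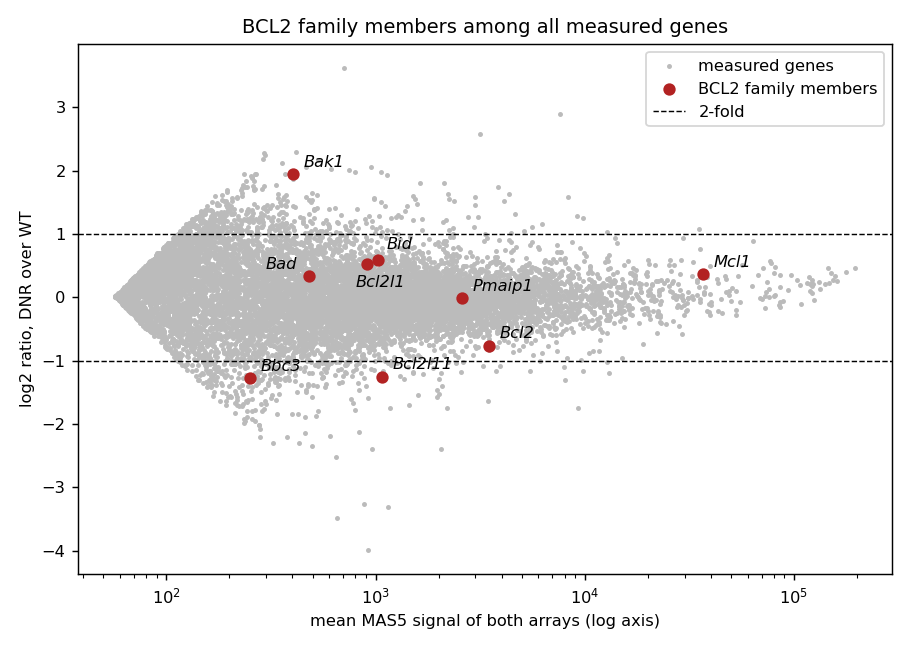
Each grey point is a measured gene, with the mean MAS5 signal of both arrays on a log x axis and the log2 ratio of the DNR over the WT array on the y axis; red points are the 9 members and dashed lines mark 2-fold. Bak1 lies above the upper line at 1.95, Bcl2l11 and Bbc3 below the lower line at -1.25 and -1.28, and the other 6 members between the lines.

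Among the guardians, none reached 2-fold. Bcl2, the founding member and a guardian of resting lymphocytes, gave 2584 in DNR against 4386 in WT Tregs by its brightest probe set, 1.70-fold lower. Each of its 5 probe sets passed the floor on both arrays, and they went both ways. Another pair was also lower, with 1350 against 1695 and 209 against 306, while the remaining pair was slightly higher, with 866 against 770 and 773 against 677. The log2 ratios thus ran from -0.76 to 0.19, with a median of -0.33. The 3 probe sets that were lower in DNR Tregs had the larger differences. The difference at Bcl2 is therefore of uncertain size, and its direction rests on 3 of 5 probe sets.

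Bcl2l1, whose product BCL-XL protects activated lymphocytes, had 1071 in DNR and 744 in WT Tregs, 1.44-fold higher. This log2 ratio of 0.53 comes from 1 of its 4 probe sets. The other 3 were below the floor on both arrays, with signals of at most 90.1, so they give no second reading.

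Mcl1, a guardian whose protein is short-lived, had the most probe sets of the members, 6, all above the floor on both arrays. Its brightest probe set read 41337 in DNR and 32048 in WT Tregs, 1.29-fold higher. The next 3 read 14826 against 16238, 14107 against 14057 and 13243 against 12000, and these 3 probe sets may hybridise to more than 1 transcript. The last pair was lower in DNR Tregs, at 6340 against 9283 and 3421 against 4121. The brightest and the last pair were designed from the same sequence and still went opposite ways, so they are repeated readings of 1 transcript and not replicates. Over the 6 probe sets the log2 ratios ran from -0.55 to 0.37 with a median of -0.06. By that median Mcl1 was lower rather than higher, and either way it was near equality.

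Among the BH3-only genes, Bcl2l11 and Bbc3 were lower in DNR Tregs and the other 3 differed by less than 2-fold. Bcl2l11 encodes BIM, which can neutralise every guardian named here and sets the number of T cells that survive. Its brightest probe set read 633 for DNR and 1508 for WT Tregs, 2.38-fold lower. The second read 521 against 1154, 2.22-fold lower, and comes from another design sequence. The next had 579 on the WT array and only 38.0 on the DNR array, under the floor, which makes it at least 5.22-fold lower. The fourth had 148 on the WT array and 7.60 on the DNR array, at least 1.33-fold lower. The fifth was below the floor on both arrays, with 69.2 against 62.5. The direction thus rests on the first pair, which passed the floor on both arrays and was at least 2-fold lower in each case. The next pair passed it through the WT array alone and could only come out lower. These 4 stem from 2 design sequences, each of which gave 2 probe sets, so they are not independent of each other.

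Bbc3 encodes PUMA, a BH3-only protein induced by p53 and by loss of survival signals. Its signals were 147 for DNR and 357 for WT Tregs, which is 2.43-fold lower (log2 ratio -1.28). Only 1 probe set measures it. Its DNR signal lies just above the floor of 110.9. It falls under a higher floor, the 60th percentile at a signal of 167, which gives a bound of at least 2.13-fold lower.

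The region before a transcription start is where the factors that switch these genes on can bind, so it is shown for the members past 2-fold. Each stretch holds the 250 bases before an annotated start, from RefSeq on the GRCm38.p6 build, printed 5′ to 3′ along the gene's own strand. Capitals mark matches, on either strand, to 6 motifs: GTAAACA (a FOXO core), GTCTAGAC (SMAD palindrome), CAGAC (a separate short SMAD motif), GGGCGG (GC box), CACGTG (E-box) and TTCCCGC (E2F). Shown are Bcl2l11, at chr2:128125788-128126037 on the plus strand, and Bbc3, at chr7:16309333-16309582 on the plus strand, both at the most upstream start listed. Also shown is the next start of Bbc3, at chr7:16310011-16310260 on the plus strand, shown because it holds a FOXO match. The last is Bak1, at chr17:27028628-27028877 on the minus strand.
Bcl2l11, first start: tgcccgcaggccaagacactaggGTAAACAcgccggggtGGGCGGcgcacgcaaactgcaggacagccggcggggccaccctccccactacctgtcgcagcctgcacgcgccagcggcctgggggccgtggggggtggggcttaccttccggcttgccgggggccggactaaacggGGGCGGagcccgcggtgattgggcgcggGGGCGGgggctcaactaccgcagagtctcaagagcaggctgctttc
Bbc3, first start: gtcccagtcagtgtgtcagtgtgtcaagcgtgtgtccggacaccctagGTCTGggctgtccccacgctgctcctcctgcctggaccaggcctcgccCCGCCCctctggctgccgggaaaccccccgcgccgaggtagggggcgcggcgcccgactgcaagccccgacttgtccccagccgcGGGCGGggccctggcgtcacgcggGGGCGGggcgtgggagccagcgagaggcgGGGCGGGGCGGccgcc
Bbc3, second start: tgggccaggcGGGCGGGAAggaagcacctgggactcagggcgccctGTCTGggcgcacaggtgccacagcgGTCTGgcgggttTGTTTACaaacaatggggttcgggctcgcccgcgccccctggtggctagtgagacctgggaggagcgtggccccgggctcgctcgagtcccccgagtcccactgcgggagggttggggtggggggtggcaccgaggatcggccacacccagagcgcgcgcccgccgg
Bak1: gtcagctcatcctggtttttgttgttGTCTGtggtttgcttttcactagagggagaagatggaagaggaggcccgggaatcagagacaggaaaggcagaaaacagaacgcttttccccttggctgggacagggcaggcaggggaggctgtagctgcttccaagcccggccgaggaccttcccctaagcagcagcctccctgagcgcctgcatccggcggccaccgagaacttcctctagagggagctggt

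The first Bcl2l11 stretch holds 1 FOXO match, which begins 227 bases before the start, and 3 GC boxes. The second Bbc3 stretch holds 1 FOXO match as TGTTTAC, 167 bases before that start, as well as 2 matches to CAGAC read as GTCTG, and an E2F match that overlaps its GC box. The first Bbc3 stretch has 5 GC boxes, of which the last 2 share a base, and 1 GTCTG. Bak1 has 1 GTCTG and no GC box in this window, at a GC content of 58.4%, against 72.0% for the Bcl2l11 stretch. FOXO matches occurred in 3.17% of all 32851 windows of the same length. The motif CAGAC occurred in 42.2%, the GC box in 32.7%, the E2F motif in 3.82%, the E-box in 6.02% and the SMAD palindrome in 0.167%. No scanned window of a member held the palindrome. The scanned windows were 15 for 9 genes, Bax among them, while Pmaip1 was left out and not scanned. The FOXO motif was found in 2 of the 15, the ones printed here. These are matches of letters and do not show binding.

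Pmaip1 encodes NOXA, which binds MCL1 above all. It was almost equal, with 2571 in DNR and 2597 in WT Tregs on its only probe set. It counts as lower at a log2 ratio of -0.01, and was at 0.03 after quantile normalization. Bid, which links death receptors to the mitochondrion once it is cleaved, had 1228 against 818, higher by a log2 ratio of 0.59. A dimmer Bid probe set went the other way, with 128 against 153, and another was below the floor on both arrays. Bad, whose product is kept inactive by phosphorylation while survival signals last, was slightly higher on both of its probe sets, with 537 against 425 and 423 against 311. These are 1.26-fold and 1.36-fold, and both come from 1 design sequence. Across the BH3-only genes the log2 ratios ran from -1.28 to 0.59, so this class held the lowest values of the family together with moderately higher ones.

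The effector that could be measured was higher in DNR Tregs. Bak1 encodes BAK, which forms pores in the outer mitochondrial membrane. Its brightest probe set read 642 for DNR and 167 for WT Tregs, 3.85-fold higher. This was the largest difference among the 9 measured members by brightest probe set. The second probe set, from another design sequence, read 136 for DNR and 85.6 for WT Tregs, the latter under the floor, so it gives a bound of at least 1.23-fold higher. It passed the floor through the DNR array alone and so could not come out lower, which leaves 1 probe set for the direction. The median of the pair, which includes that bound, was 2.18-fold higher, so the size depends on the probe set.

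**Figure D2:**
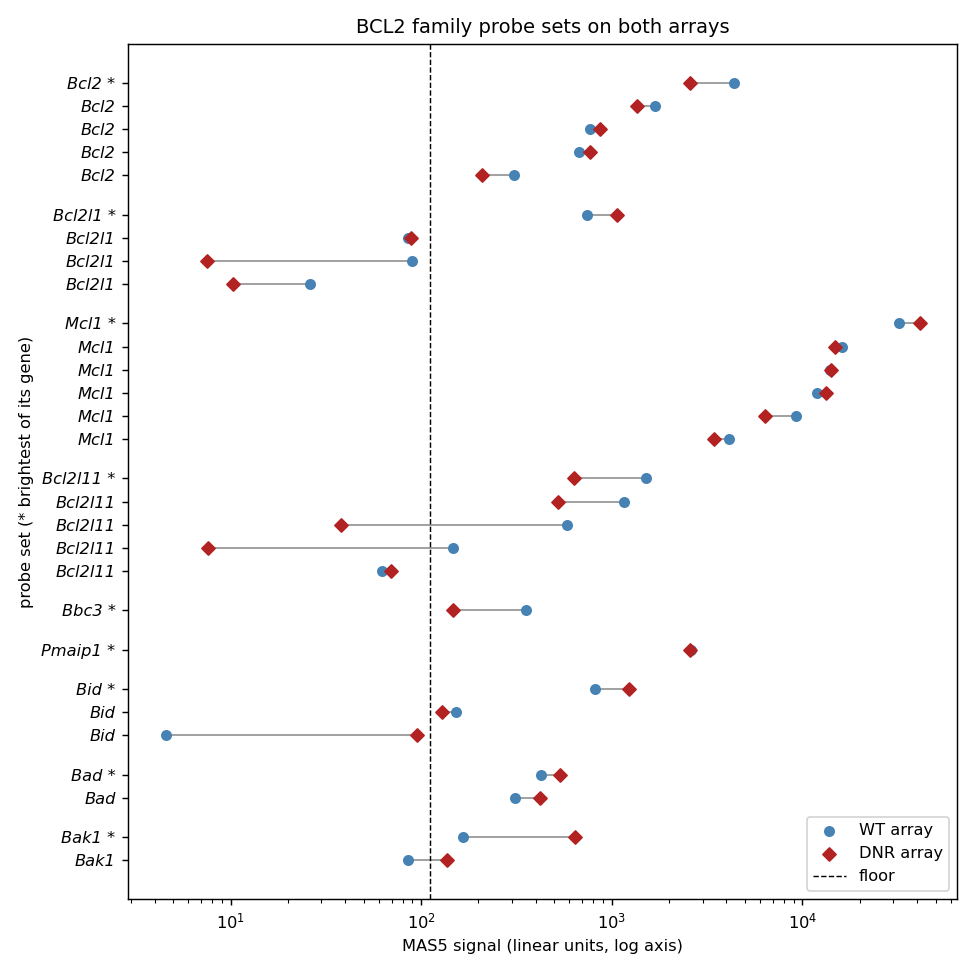
Each line is 1 of the 29 probe sets, grouped by gene and sorted by signal, with the MAS5 signal on a log x axis; red diamonds are the DNR array, blue circles the WT array, an asterisk marks the brightest probe set of a gene and the dashed line the floor of 110.9. Where both signals pass the floor, the diamond lies left of the circle in both of Bcl2l11 and right of it in the 1 of Bak1, and those of Bcl2 and Mcl1 go both ways.

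Over probe sets, 21 of the 29 were above the floor on both arrays, 10 with a higher and 11 with a lower DNR signal. Of the 21, 3 were at least 2-fold lower (a pair of Bcl2l11 and 1 of Bbc3) and 1 reached 2-fold in the other direction (Bak1). With the 3 above the floor on 1 array, 4 of 24 were at least 2-fold lower and 1 at least 2-fold higher. The lower one that this adds, of Bcl2l11, passed the floor through the WT array alone and could only come out lower. Probe sets of Bcl2l11 are also not independent of each other. Among all 20769 named probe sets above the floor on at least 1 array, 7.23% differed by at least 2-fold in either direction. In all 7 alternative settings Bcl2l11 stayed at least 2-fold lower (2.30-fold to 2.38-fold), as did Bbc3 (2.13-fold to 2.64-fold), and Bak1 stayed at least 2-fold higher (2.18-fold to 3.88-fold). Several settings could not change these values. A lower floor, no floor and leaving out probe sets that can bind several transcripts all keep the same brightest readings. Bbc3, with 1 probe set, could not move under the median over probe sets either.

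**Figure D3:**
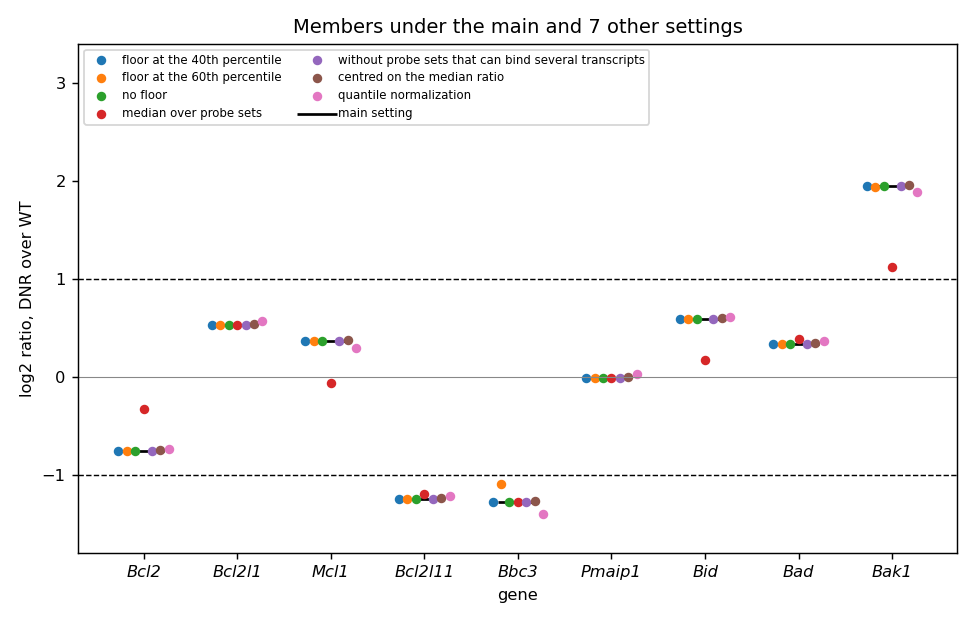
For each member, coloured points give the log2 ratio of the DNR over the WT array under 7 alternative settings, the black bar gives the main setting and dashed lines mark 2-fold. Bak1, Bcl2l11 and Bbc3 stay beyond the dashed lines in every setting, while Mcl1 moves from 0.37 to -0.06 and Bcl2 from -0.76 to -0.33 with the median over probe sets.

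The other genes of the BCL2 family were mostly near the floor. Of 16 listed, 11 had a probe set of their own and 8 were measured, 4 of them higher and 4 lower. Bcl2l12, a distant relative, was lower, with 52.1 on the DNR array, under the floor, against 511 on the WT array. Its second probe set differed little, with a log2 ratio of -0.12, so the bound of at least 4.61-fold rests on 1 probe set. Bnip3, a mitochondrial protein induced by lack of oxygen, was 1.85-fold lower (212 against 392). The BH3-only gene Hrk was above the floor in WT Tregs alone (36.1 against 178, at least 1.60-fold lower). The BH3-only gene Bmf (241 against 193) and the guardian Bcl2l2 (175 against 126) were slightly higher, by 1.25-fold and 1.39-fold. Bcl2l13 was 1.31-fold lower (523 against 685), and Bik and Bcl2l14 were above the floor on the DNR array alone, at 139 and 121. Both of these are lower bounds, of 1.25-fold and 1.09-fold, and leave the true sizes undetermined. Of the 4 genes that passed the floor on both arrays, 2 were higher and 2 lower, none by 2-fold.

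The genes of mitochondrial release and of the apoptosome, with the Vdac channel genes among them, differed little. Of 10 such genes, all measured, 8 were higher and 2 lower, none by 2-fold, with a median log2 ratio of 0.14. Cycs, cytochrome c, which triggers the apoptosome once it leaves the mitochondrion, read 22461 in DNR and 17045 in WT Tregs. The channel gene Vdac2 read 6510 and 5982.

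Among the caspases, the proteases of cell death and inflammation, 6 passed the floor on both arrays, 3 higher and 3 lower. The ones past 2-fold were Casp4 (3369 against 1088, 3.10-fold higher) and Casp1 (1990 against 778, 2.56-fold higher). Both belong to the inflammatory caspases, which mature cytokines and drive pyroptosis. The apoptotic initiator Casp8 was 1.32-fold lower (3073 against 4060) and Casp9, the caspase of the apoptosome, 1.58-fold higher (320 against 202). Casp8 and Casp9 were chosen with their values seen.

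The IAP family shares the BIR domain, through which some members restrain caspases. Of 8 measured members 7 were higher and 1 lower, and 4 of the higher ones passed 2-fold, with a median log2 ratio of 0.54. Birc5 (survivin), which also works in cell division, had 2550 against 728, 3.50-fold higher. The other 3 were Naip2 (1189 against 297), Naip5 (1349 against 585) and Naip6 (723 against 361, just past the threshold), which sense bacterial proteins. The Naip genes are close copies of each other, so their probe sets may share transcripts. The caspase inhibitor Xiap was close to equal (3183 against 3032), and the list median was 0.06 once probe sets shared by several transcripts were left out.

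Of 11 measured death receptor genes 10 passed the floor on both arrays, and by their brightest probe sets 4 of these were higher and 6 lower, none by 2-fold. The ligand gene Fasl had 906 against 1122, but its second probe set was at -1.59. Tnfrsf10b, a receptor for TRAIL, passed the floor in WT Tregs only (22.1 against 128), which gives a bound of 1.15-fold lower and no size. Both were chosen with their values seen. Cflar, the inhibitor of Casp8 activation, was nearly equal by its brightest probe set (1450 against 1504). The other 4 Cflar probe sets above the floor ran from -0.09 to 0.86, and the median over its probe sets was 0.39. Among the regulators of BH3-only transcription 9 passed the floor on both arrays, 3 higher and 6 lower, none by 2-fold in the main setting. Jun, an AP-1 subunit, was lower by just under 2-fold (6394 against 12780). Its second probe set was at -1.12, and the median of both (-1.06) passed 2-fold, as did Jun after quantile normalization. Egr1 was almost equal (10317 against 10501). The FOXO factors, which activate Bcl2l11 and Bbc3 when survival signalling stops, were chosen with their values seen. Foxo1 had 4167 against 6242, a log2 ratio of -0.58, with both of its other probe sets lower, at -0.64 and -0.35. Foxo3 had 2265 against 2876, 1.27-fold lower, with its second probe set near equality at -0.04.

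Of the genes of MCL1 protein turnover 7 were measured, 3 higher and 4 lower, none by 2-fold by the brightest probe set. The ubiquitin ligase gene Huwe1 read 3284 in DNR and 3444 in WT Tregs, and Marchf5 5834 and 4373. Other probe sets of Marchf5 went both ways, from -0.80 to 0.79. Those of Gsk3b, chosen with its values seen, ran from -1.50 to 0.48. Genes of cytokine survival signalling were also within 2-fold by their brightest probe sets. The second probe set of Il7r was higher, at 1.54, and that of Il15ra was just past 2-fold higher, both chosen with their values seen. Of 12 measured 8 were lower, with a median log2 ratio of -0.21. Jak1, a kinase of cytokine receptors, was 1.33-fold lower (8608 against 11442) and Pim1, a survival kinase, 1.24-fold lower (20532 against 25372).

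**Figure D4:**
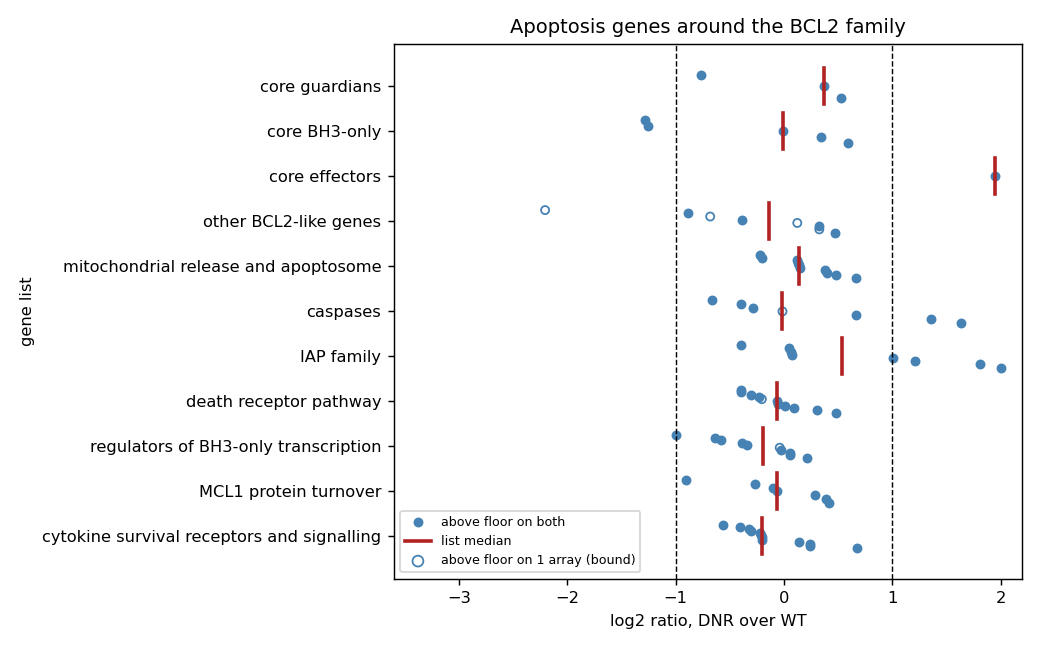
Each point is a measured gene of a list, with its log2 ratio of the DNR over the WT array on the x axis; filled points were above the floor on both arrays, open points on 1 array (a bound), red bars are list medians and dashed lines mark 2-fold. Points beyond the upper line are Bak1, Casp1, Casp4 and 4 IAP genes, and those beyond the lower line are Bcl2l11, Bbc3 and Bcl2l12.

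Markers of other cell types and of cell division also differed between the arrays, and their part in the differences of the family was not tested. Of 16 measured cell cycle markers 14 had a higher signal in DNR Tregs, 11 past 2-fold (median 1.19), in the same direction as Bak1. Macrophage and monocyte markers were lower in 7 of 7 measured, with C1qa (330 against 788) and C1qc (185 against 386) past 2-fold, in the same direction as Bcl2l11 and Bbc3. The 7 include C1qb, which was nearly equal (641 against 652, other probe sets at -0.01 and 0.03), and Adgre1 (252 against 275). The 9 probe sets of this list sum to 3540 in DNR and 4904 in WT Tregs, and Cd14 and Fcgr1 were below the floor on both arrays. Neutrophil markers summed to 1513 against 786, with 7 of 11 below the floor on both arrays. Above it on both were Mmp9, which was higher (537 against 184), and Elane, which was lower (173 against 238), while Ngp (287) and S100a8 (285) passed it through the DNR array alone. The median of this list was 1.37, and 0.21 at a floor at the 40th percentile. B cell markers summed to 1807 against 1274, with Cd79a, Pax5 and Ebf1 below the floor on both arrays. Among them Cd22 was 2.74-fold higher (444 against 162) and Cd79b 1.30-fold higher (869 against 666), while Ms4a1 and Blk passed the floor in WT Tregs only and Fcer2a in DNR Tregs only. CD8 T and NK cell markers summed to 1249 against 1191, with 4 of 6 above the floor on both arrays, 2 of them higher and 2 lower. Of 3 erythroid markers only Epor passed the floor, on the WT array alone. The 18 probe sets for hybridisation spike-ins, RNA added to the sample before it is applied to the array, had a median ratio of 1.95 in favour of the DNR array.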

How the data were processed

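The deposited values are linear MAS5 intensity values, 1 per probe set and array, per the submitters' processing notes. How they were scaled is not stated in the labels; the mean of each array was 500.0 after 2% was trimmed from either end. Of 45101 deposited probe sets 64 controls were set aside. The annotation gave 34957 of the rest exactly 1 gene, 920 several and 9160 none; 0 symbols changed on update through Entrez identifiers. Of 18201 genes 11931 were measured: 9282 passed the floor on both arrays, 1815 in DNR only and 834 in WT only. The number of arrays, 1 per genotype, limits the precision, and no test was made.

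All 10 members were to be named with every probe set; of the other lists, up to 4 measured genes past 2-fold, or else the 2 brightest, and every measured BCL2-like gene. With 2 arrays no gene of similar pattern can be named. Members, lists and motifs were chosen with earlier results of these data known. Promoter stretches came from RefSeq, and the 50 bases after each start were left out. Alternatives were floors at the 40th and 60th percentiles, no floor, the median over probe sets, leaving out probe sets that can bind several transcripts (suffixes _a_at, _s_at and _x_at), median centring, quantile normalization, and thresholds of 1.5-fold and 3-fold. The procedure was tested on simulated data, with large differences put on genes far above the floor and noise smaller than the probe set SD. That test does not cover signals near the floor, such as those of Bbc3 in DNR and Bak1 in WT Tregs. Python 3.11.15, pandas 2.3.3 and numpy 2.4.6 were used.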

Additional observations from a re-analysis of the deposited data

How the results depend on the processing

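No paired analysis was possible because each genotype has 1 array and no test was made. The numbers of family members at least 2-fold higher (1) and lower (2) were the same under all 7 settings of floor, probe sets and scaling. At a threshold of 1.5-fold 2 members were higher and 3 lower, and at 3-fold 1 was higher and 0 were lower. The family median of 0.34 lay between -0.01 (median over probe sets) and 0.35. With the median over probe sets Mcl1 went from 0.37 to -0.06, and the middle member became Pmaip1 (-0.01) in place of Bad (0.34). Of 63 values of the members under the 7 settings 59 moved by no more than the probe set SD of 0.36. The other 4, all with the median over probe sets, were Bak1 (1.12), Bcl2 (-0.33), Bid (0.17) and Mcl1 (-0.06). Many of the 63 values could not move. A lower floor, no floor and leaving out probe sets that can bind several transcripts returned the main value of every member. Median centring shifted all members alike. Under the median over probe sets Bcl2l1, Bbc3 and Pmaip1, each with 1 probe set above the floor, were fixed too. Of 255 values of 38 other named genes 24 moved by more than that SD and 0 reversed a 2-fold difference. Only genes past 2-fold in the main setting could count as reversed, and a change of floor cannot turn the sign of a ratio. The 0 was thus largely fixed in advance.

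Over all measured genes 477 were at least 2-fold higher and 350 lower. A floor at the 40th percentile gave 1029 and 550, and no floor gave 1639 and 858; at a threshold of 1.5-fold they were 1529 and 1175 and at 3-fold 56 and 63. A floor at the 60th percentile left 250 higher. Counts rise with a lower floor because dim values then give larger ratios. Signals near the floor, as for Bbc3 in DNR and Bak1 in WT Tregs, limit what can be said of size.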
